A study of Mus musculus with 16 samples.

Results

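The genes described here encode EMP3 and the membrane proteins related to it or built like it. They are the PMP22/EMP relatives Emp2, Emp3, Pmp22 and Lim2, the claudins (Cldn), the tetraspanins (Tspan) and Tm4sf1. They were chosen by the gene symbol that the platform annotation gives a probe, without use of any measured value, which gave 34 probes for 28 genes out of 20794 probes in all. Of these, 6 probes stand for 4 PMP22/EMP relatives, 11 probes for 10 claudins, 16 probes for 13 tetraspanins and 1 probe for Tm4sf1. The 6 symbols Emp2, Emp3, Cldn10, Tspan2, Tspan5 and Tspan33 were carried by 2 probes each. A gene name below stands for the probe annotated to it. Probes of the same gene did not in general share a spleen value, as described near the end.

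EMP3 mutant male mice aged 17 weeks were studied with dual-channel microarrays. Total RNA from the spleen of 4 mutant mice, and from the thymus of the same 4 mutant mice, was hybridised against RNA of the same organ pooled from 4 wild-type males of that age. The labels state neither the kind of EMP3 mutation nor the strain. The series title names brain where the sample labels name spleen, and the sample labels were followed. Each mutant mouse was hybridised to a pair of arrays per organ, with the mutant RNA in Cy5 on one array and in Cy3 on the other. The pool was a single control sample for its organ and no wild-type mouse was hybridised alone, so the spread between control mice was not measured.

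EMP3, EMP2, PMP22 and LIM2 are small glycoproteins that cross the membrane several times and share an ancestral fold with the claudins, the proteins that seal or perforate the space between epithelial and endothelial cells at tight junctions. Tetraspanins have the same number of membrane passes and a different fold; they gather integrins, proteases and immune receptors into membrane microdomains and are abundant on leukocytes. PMP22 is known for compact myelin, the EMP proteins for epithelia and blood cells, and claudins in the thymus for the medullary epithelium.

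The deposited log ratios are given as log2 of mutant over pool. No label states that direction; it is likely from the design text, which names the mutants before the pool they were compared with. With the pool as the numerator, every "higher" below is a lower value and every "lower" a higher one. The sign on the arrays with the mutant in Cy3 was taken as already turned. Across probes, the correlation within a spleen pair was 0.0518 to 0.424, and arrays of different mice with the same mutant dye at 0.240 to 0.627. In thymus the 2 arrays of mice 1, 3 and 4 correlated at -0.440 to -0.249, and arrays of different mice with the same dye at 0.144 to 0.393, so the thymus arrays do not settle this sign. The 2 thymus arrays of mouse 2 mirrored each other (r = -0.922; the sum of both values fell within 0.01 of the median sum at 83.5% of probes, against 1.28% to 5.80% for the other pairs) and were left out. This leaves 4 mice in spleen and 3 in thymus. An array measured 20046 to 20639 probes. No channel intensities were part of the values, so neither the depth behind a ratio nor the presence of spleen and thymus marker transcripts can be read from them; the number of mice limits the precision.

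In spleen 9 of the 34 probes differed from the pool, and none of them belonged to a PMP22/EMP relative. Claudins 3 and 19 were 1.46- and 1.59-fold lower, and claudins 4, 6 and 12 were 1.18- to 1.27-fold higher. Both probes of Tspan33 were lower, and Tspan4 and Tspan32 were higher. The test was limma's moderated statistic on the mean of the 2 arrays of each mouse, with spleen fitted alone and p-values adjusted by the Benjamini-Hochberg method over all 20127 probes tested, at a threshold of 0.05. Over all probes the same rule called 25.3%, or 13.4% higher and 11.9% lower, so the members' 26.5%, with 5 higher and 4 lower, lay near the background. With the median of each array set to 0 the members split into 4 higher and 5 lower. By family, 0 of 6 probes of the PMP22/EMP relatives, 5 of 11 of the claudins, 4 of 16 of the tetraspanins and 0 of 1 of Tm4sf1 passed. The median spleen log2 ratio was -0.06 for the relatives, 0.03 for the claudins and -0.04 for the tetraspanins, against 0.04 for all probes. The median size of the log2 ratio, regardless of sign, was 0.18 for the relatives, 0.26 for the claudins and 0.16 for the tetraspanins, against 0.17 for all probes. The 9 probes past the threshold had all 4 mice on the same side of 0, as had 48.3% of all probes measured in 4 mice. No test between the families was made, because probes of a family are not replicates.

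**Figure D1:**
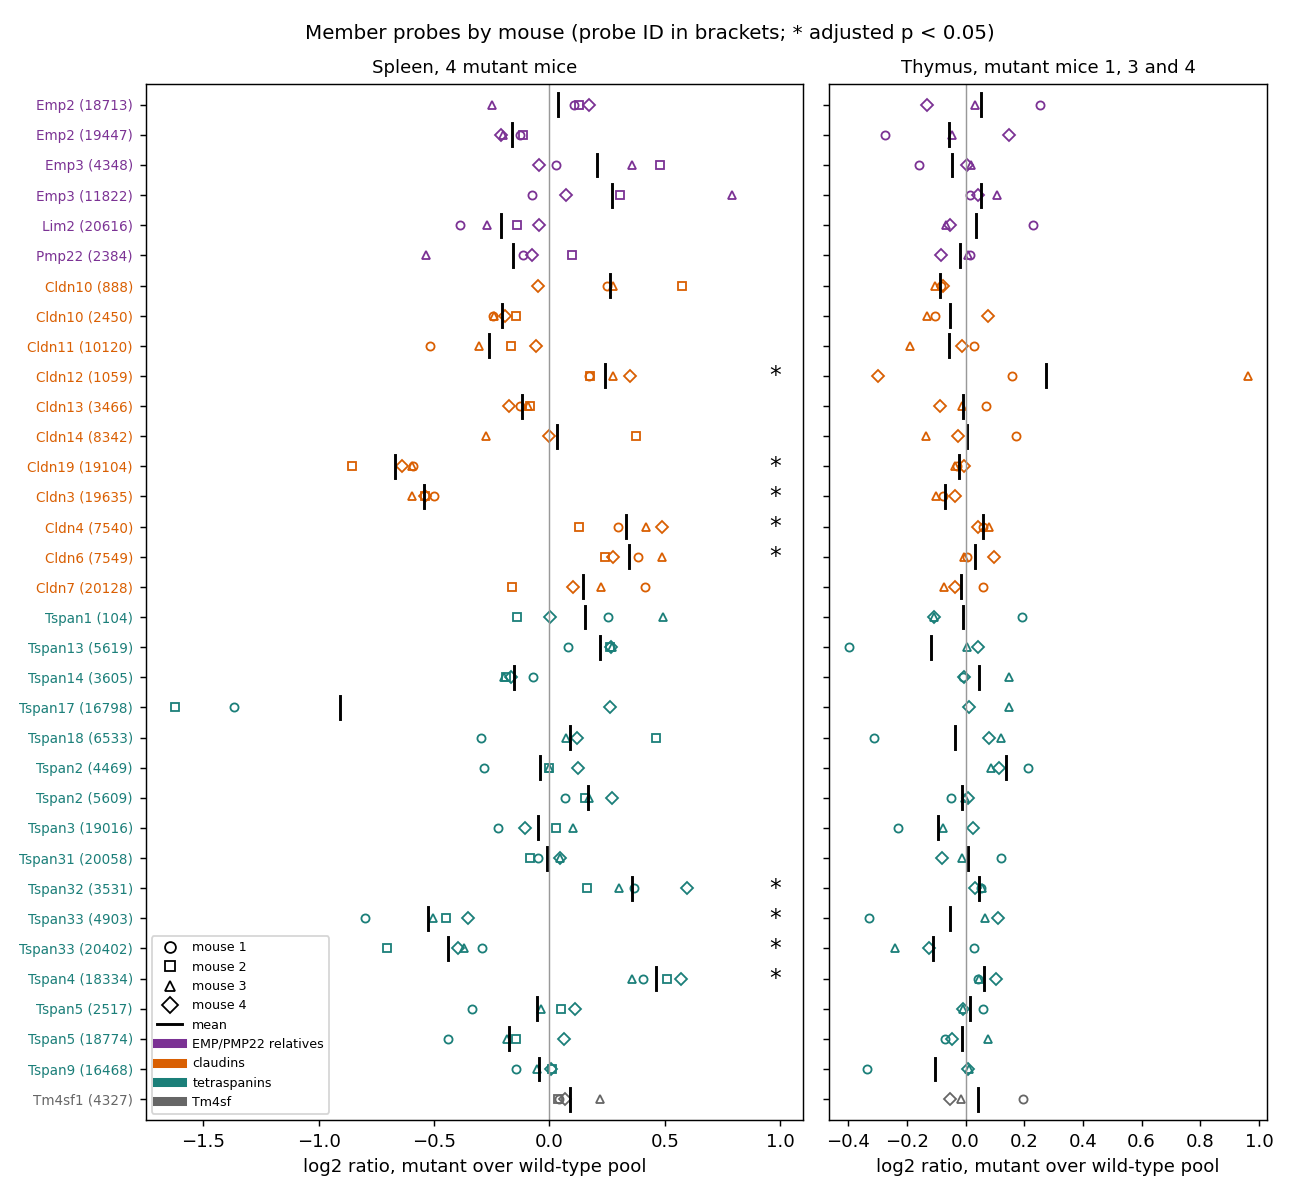
Log2 ratio of mutant over wild-type pool (horizontal axis) for each of the 34 probes (rows, coloured by family, probe ID in brackets), with the 4 mutant spleens on the left and the 3 mutant thymi used on the right; symbols are mice, bars are means, and stars mark an adjusted p under 0.05 in spleen. The 9 starred spleen probes have all 4 mice on the same side of 0, and the thymus means lie between -0.12 and 0.14 apart from Cldn12 at 0.27, with single thymus mice as far out as 0.96 (Cldn12, mouse 3) and -0.40 (Tspan13, mouse 1).

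Emp3, the mutated gene, encodes epithelial membrane protein 3, which is found on many epithelial and blood cells. Its probe 4348 had spleen log2 ratios of 0.03, 0.48, 0.36 and -0.05 in mutant mice 1 to 4, a mean of 0.20 ± 0.25 (SD, n = 4; limma adjusted p = 0.204). Mice 2 and 3 stood above 0 and mice 1 and 4 lay next to it. Its probe 11822 was at -0.07, 0.30, 0.79 and 0.07, a mean of 0.27 ± 0.38 (SD, n = 4; limma adjusted p = 0.214). Mouse 3 was the highest there and mouse 1 the only mouse below 0. The 95% intervals of the means ran from -0.05 to 0.46 and from -0.08 to 0.63. Apart from the unmeasured spread of the pool, they hold no fall larger than 0.08 on the log2 scale, if the values are mutant over pool. Emp3 was thus not detectably lower in the mutants at either probe annotated to it. Probe 4348 averaged 0.47 with the mutant in Cy5 and -0.06 with the mutant in Cy3, and probe 11822 averaged 0.33 and 0.22. Neither the stretch of Emp3 that the probes detect nor the change made in the gene is stated. Whether the annotation matches the values at these probes was not tested. The Emp3 values therefore do not check the labels. The window from 250 bases before to 50 bases after the start of Emp3 is shown because Emp3 is the mutated gene. It is RefSeq sequence of build GRCm38.p6, as are the windows below, given 5′ to 3′ in the direction of the gene; the build behind the array files is not given in the sources used here. Capitals mark the motif TATAAA or its complement TTTATA, and GGGCGG or its complement CCGCCC, known as the TATA box and the GC box.
Emp3, chr7:45921377-45921676, minus strand: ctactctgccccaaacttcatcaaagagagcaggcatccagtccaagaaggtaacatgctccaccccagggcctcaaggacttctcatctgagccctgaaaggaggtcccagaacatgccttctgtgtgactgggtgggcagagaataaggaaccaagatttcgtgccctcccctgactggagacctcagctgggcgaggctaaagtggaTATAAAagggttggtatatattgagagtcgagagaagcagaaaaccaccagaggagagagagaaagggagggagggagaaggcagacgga
The window holds 1 TATA box and no GC box. Of the 32851 promoter windows of all genes in that table, 13.6% hold a TATA box and 35.7% a GC box.

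The other relatives did not pass the threshold in spleen either. Emp2, which helps to place integrins and caveolin at the cell surface, had log2 ratios of -0.13, -0.11, -0.20 and -0.21 in mutant mice 1 to 4 at probe 19447, a mean of -0.16 ± 0.05 (SD, n = 4; limma adjusted p = 0.0973). All 4 mice lay below 0 within a narrow range. Its second probe, 18713, had 3 mice between 0.105 and 0.171 and mouse 3 at -0.2485, with a mean of 0.04 ± 0.19 (SD, n = 4; limma adjusted p = 0.774). Pmp22, the myelin protein of Schwann cells, was at -0.11, 0.10, -0.53 and -0.07, a mean of -0.16 ± 0.27 (SD, n = 4; limma adjusted p = 0.339), with mouse 3 lowest and mouse 2 above 0. Lim2, a membrane protein of lens fibre cells, was at -0.39, -0.14, -0.27 and -0.04, a mean of -0.21 ± 0.15 (SD, n = 4; limma adjusted p = 0.0984). Its value depends on the place of the probe in the table: the running median over the probe and the 100 IDs on either side, averaged over the spleen arrays, was -0.58. With that running median removed from each array, Lim2 was at 0.36 with an adjusted p of 0.0452, the opposite direction. The ratio also depended on the dye. It was -0.415 on the arrays with the mutant in Cy5 and -0.007 on those with the mutant in Cy3 (limma adjusted p = 0.0404 and 0.967, each dye alone). Over the Schwann cell and myelin markers, 0 of 4 probes for 3 genes passed in spleen, with log2 ratios from -0.25 to 0.02; their part in the Pmp22 value was not tested.

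Among the claudins the lowest ratios were at Cldn19 and Cldn3. Cldn19, a claudin of kidney tubules and Schwann cells, had spleen log2 ratios of -0.59, -0.85, -0.60 and -0.64 in mutant mice 1 to 4. All 4 mice lay well below 0, with mouse 2 lowest. The mean was -0.67 ± 0.12 (SD, n = 4), or 1.59-fold lower, with a limma adjusted p of 0.00405. Cldn3, a sealing claudin of epithelia, was at -0.50, -0.54, -0.60 and -0.54, a mean of -0.54 ± 0.04 (SD, n = 4), or 1.46-fold lower (limma adjusted p = 0.00406). The 4 mice lay close together at this probe. Both calls held in 14 of 15 alternative ways of processing and were lost only with the sign of the Cy3 arrays turned, the other dye reading. The alternatives that differ only in the handling of missing spots leave the ratio of a probe measured on every spleen array unchanged. Counts of held calls here and below include them.

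Cldn4, Cldn6 and Cldn12 were higher. Cldn4, an epithelial claudin that shares with Cldn3 the role of receptor for a clostridial enterotoxin, had spleen log2 ratios of 0.30, 0.13, 0.42 and 0.49 in mutant mice 1 to 4. All mice lay above 0, mouse 2 least so. The mean was 0.33 ± 0.16 (SD, n = 4), or 1.26-fold higher (limma adjusted p = 0.030). Cldn6, a claudin of embryonic epithelia, was at 0.39, 0.24, 0.49 and 0.28, a mean of 0.35 ± 0.11 (SD, n = 4), or 1.27-fold higher (limma adjusted p = 0.0175). Cldn12, which lacks the PDZ-binding end of other claudins, was at 0.17, 0.17, 0.28 and 0.35, a mean of 0.24 ± 0.09 (SD, n = 4), or 1.18-fold higher (limma adjusted p = 0.0408). Of the 15 alternatives, the call held in 6 for Cldn4, 9 for Cldn6 and 4 for Cldn12. For Cldn12 these were the fit without mouse 1 and the alternatives for missing spots, which leave its ratio unchanged. Cldn12 missed the threshold with array medians set to 0 (adjusted p = 0.0575), in the fit of both organs (0.282), with the pool variance added (0.164) and on the arrays of either dye alone (0.121 and 0.216). With the pool variance added, Cldn4 had an adjusted p of 0.131 and Cldn6 one of 0.0884. Without mouse 4, Cldn4 had an adjusted p of 0.113, Cldn6 one of 0.0583 and Cldn12 one of 0.152. Cldn4 was also lost without mouse 1 (0.0517) and without mouse 3 (0.0809), and Cldn12 without mouse 2 (0.0988) and without mouse 3 (0.0991). Once the running median of neighbouring IDs was taken off, Cldn4 was at 0.21 (adjusted p = 0.122), Cldn6 at 0.23 (0.0758) and Cldn12 at 0.22 (0.0511). The Cldn4 and Cldn6 probes have IDs close together, and the running median there was 0.13 and 0.11.

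Cldn3 and Cldn4 are next to each other on chromosome 5 in the RefSeq gene table, with Cldn13 on the far side of Mettl27, and their probes moved in opposite directions in spleen. The start windows of the neighbours Cldn3 and Cldn4, and of Cldn19, the claudin probe furthest from 0, are shown to set these 3 side by side, with the same marking.
Cldn3, chr5:134985964-134986263, plus strand: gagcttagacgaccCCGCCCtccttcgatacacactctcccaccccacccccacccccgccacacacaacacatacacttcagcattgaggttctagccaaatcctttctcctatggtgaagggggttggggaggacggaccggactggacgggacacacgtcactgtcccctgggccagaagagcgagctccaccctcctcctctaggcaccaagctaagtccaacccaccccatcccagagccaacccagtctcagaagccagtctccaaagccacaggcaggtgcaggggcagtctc
Cldn4, chr5:134946885-134947184, minus strand: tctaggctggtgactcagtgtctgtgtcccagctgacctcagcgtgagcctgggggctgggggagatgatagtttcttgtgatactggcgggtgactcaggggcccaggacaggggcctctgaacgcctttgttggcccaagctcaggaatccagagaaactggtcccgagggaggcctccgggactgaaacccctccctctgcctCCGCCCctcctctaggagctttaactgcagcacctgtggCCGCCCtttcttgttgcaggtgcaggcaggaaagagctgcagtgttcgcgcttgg
Cldn19, chr4:119255191-119255490, plus strand: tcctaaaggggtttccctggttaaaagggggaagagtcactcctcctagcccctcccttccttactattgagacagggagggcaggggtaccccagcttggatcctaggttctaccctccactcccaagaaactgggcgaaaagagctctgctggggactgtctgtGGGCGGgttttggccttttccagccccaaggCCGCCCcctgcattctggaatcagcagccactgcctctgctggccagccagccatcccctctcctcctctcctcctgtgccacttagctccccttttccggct
Cldn3 holds 1 GC box, and Cldn4 and Cldn19 hold 2 each. None of the 3 windows holds a TATA box. The GC content was 60.7%, 61.0% and 59.3% for Cldn3, Cldn4 and Cldn19, against a median of 52.7% over all windows. These letters therefore did not separate the lower Cldn3 and Cldn19 from the higher Cldn4. Of the 28 member genes, 26 have a window in the table, and Cldn13 and Tspan18 are missing from it. The first window listed for a gene held a GC box in 14 of the 26 and a TATA box in 1.

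The other 6 claudin probes did not pass in spleen. Cldn13, a claudin of rodents found on blood-forming cells, was at -0.13, -0.08, -0.09 and -0.17 in mutant mice 1 to 4, a mean of -0.12 ± 0.04 (SD, n = 4; limma adjusted p = 0.188). All 4 mice lay below 0 by little. Cldn11, of myelin and testis tight junctions, was at -0.52, -0.17, -0.31 and -0.06, a mean of -0.26 ± 0.20 (SD, n = 4; limma adjusted p = 0.0831). Cldn7, an epithelial claudin, ranged from -0.16 to 0.42 over the mice, and Cldn14, of the inner ear, from -0.27 to 0.38 over the 3 mice with a value. In mouse 1 the Cldn14 spot held no value on the Cy3 array. On the Cy5 array it held the constant that stood in some spots of each array and was set missing. Cldn10, which forms ion-selective pores, had probes on either side of 0. Probe 2450 was at -0.20 ± 0.05 (SD, n = 4; limma adjusted p = 0.0529) with all mice below 0, and probe 888 at 0.26 ± 0.26 (SD, n = 4; limma adjusted p = 0.122) with mouse 4 below 0.

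Claudins mark epithelium and endothelium, so those markers were set beside them. Of 13 probes for 10 epithelial genes, 3 were higher and 2 lower in mutant spleen (38.5%, against 25.3% of all probes), with a median log2 ratio of 0.09 and a range of -0.83 to 0.50. Krt19 and Krt18, keratins of simple epithelia, were at 0.50 ± 0.27 and 0.41 ± 0.22 (SD, n = 4; limma adjusted p = 0.0228 and 0.0295). Aire, which drives tissue antigens in medullary thymic epithelium, was at -0.54 ± 0.19 (SD, n = 4; limma adjusted p = 0.00953). The Cdh1 probe 20278, for E-cadherin, was at -0.83 ± 0.18 (SD, n = 4; limma adjusted p = 0.00401), and the second Cdh1 probe, 737, at 0.15 ± 0.19 (SD, n = 4; limma adjusted p = 0.264). Of 17 probes for 11 endothelial genes, 2 were lower and none higher, with a median of -0.06 and a range of -0.72 to 0.47. Both, like Cdh1 probe 20278, were in the same stretch of IDs as Lim2 and Tspan33 probe 20402, Cdh5 (probe 20279, VE-cadherin) at -0.72 ± 0.15 and Tek (probe 20379, the angiopoietin receptor) at -0.61 ± 0.20 (SD, n = 4; limma adjusted p = 0.00409 and 0.00689), while the second Cdh5 probe, 15648, did not pass, at -0.21. The running median of neighbouring IDs was -0.18 at that Cdh5 probe and at the adjacent Cdh1 probe 20278, and -0.35 at Tek. In these whole-organ samples a change in the number of cells of a type and a change in RNA per cell cannot be told apart, and the part of either in the claudin values was not tested.

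Of the tetraspanins, Tspan33 was lower at both of its probes. Tspan33 is known from erythroid precursors and activated B cells. Probe 4903 had spleen log2 ratios of -0.80, -0.45, -0.51 and -0.35 in mutant mice 1 to 4, a mean of -0.53 ± 0.19 (SD, n = 4), or 1.44-fold lower (limma adjusted p = 0.0102). All 4 mice were below 0, mouse 1 most so. Probe 20402 was at -0.29, -0.70, -0.37 and -0.40, a mean of -0.44 ± 0.18 (SD, n = 4), or 1.36-fold lower (limma adjusted p = 0.016), with mouse 2 lowest. The probes thus did not rank the mice alike. At probe 20402 the running median of neighbouring IDs averaged -0.37, and with it removed the probe was at -0.07 (adjusted p = 0.503); without mouse 4 its adjusted p was 0.059. At probe 4903 the running median was -0.10, and with it removed the probe was at -0.42 (adjusted p = 0.0131). With the variance of a wild-type pool of 4 mice added, the adjusted p was 0.0574 for probe 4903 and 0.0825 for probe 20402. The call held in 11 of 15 alternatives for probe 4903 and in 8 for probe 20402. Of 8 probes for 4 erythroid genes, 2 (25%, against 25.3% of all probes) were lower and none higher in mutant spleen, with a median log2 ratio of -0.12 and a range of -0.94 to 0.10. They were Hba-a1 probe 15435, for alpha globin, at -0.52 ± 0.03, and Klf1, an erythroid transcription factor, at -0.26 ± 0.13 (SD, n = 4; limma adjusted p = 0.00413 and 0.0452). The other 4 Hba-a1 probes did not pass, at -0.20, -0.04, 0.09 and 0.10. None of the 4 B cell probes passed, with log2 ratios from 0.03 to 0.29. Of 12 T cell probes 2 were higher and 1 lower, and of 7 macrophage probes 2 were higher and 2 lower. The part of these cells in the Tspan33 value was not tested. The start window of Tspan33 is shown as that of the only member gene called at 2 probes.
Tspan33, chr6:29693964-29694263, plus strand: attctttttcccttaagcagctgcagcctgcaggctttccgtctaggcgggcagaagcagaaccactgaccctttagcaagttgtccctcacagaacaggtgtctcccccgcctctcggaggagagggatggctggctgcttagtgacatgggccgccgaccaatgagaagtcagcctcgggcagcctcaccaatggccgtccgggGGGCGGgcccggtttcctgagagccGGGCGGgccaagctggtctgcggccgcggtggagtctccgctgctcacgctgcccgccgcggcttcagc
It holds 2 GC boxes and no TATA box, and 21 CG dinucleotides, against a median of 7 over all windows.

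Tspan4 and Tspan32 were higher. Tspan4, known from migrasomes, the vesicles left behind by migrating cells, had spleen log2 ratios of 0.41, 0.51, 0.36 and 0.57 in mutant mice 1 to 4. All 4 mice lay well above 0. The mean was 0.46 ± 0.10 (SD, n = 4), or 1.38-fold higher (limma adjusted p = 0.00664). This call was kept in 13 of 15 alternatives and lost in the 1.2-fold test (adjusted p = 0.151) and in the other dye reading (0.739). Tspan32, a tetraspanin of blood cells that restrains T cell proliferation in mice, was at 0.36, 0.16, 0.30 and 0.60, a mean of 0.36 ± 0.18 (SD, n = 4), or 1.28-fold higher (limma adjusted p = 0.0299). Its Cy5 arrays averaged 0.65 and its Cy3 arrays 0.06, so the Tspan32 ratio was near 0 in the second orientation. The Tspan32 call held in 7 of 15 alternatives. Tspan32 missed the threshold when mouse 1, mouse 3 or mouse 4 was left out, with adjusted p-values of 0.0593, 0.0607 and 0.0984. It also did so with the pool variance added (0.131).

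Tspan5, Tspan14, Tspan17 and Tspan33 belong to the TspanC8 group, which escorts the membrane protease ADAM10. All 6 of their probes had a spleen mean below 0, with a median of -0.31, while 4 of the other 10 tetraspanin probes were below 0, with a median of 0.12. Of all 20127 probes tested, 11552 had a spleen mean above 0. The grouping was made after the values were seen, so its contrast with the other tetraspanins tests nothing. Only the 2 Tspan33 probes of it passed the threshold, and probe 20402 was at -0.07 with the running median removed. Tspan14 was at -0.07, -0.19, -0.20 and -0.16 in mutant mice 1 to 4 (limma adjusted p = 0.115). Tspan5 was at -0.05 ± 0.20 at probe 2517 and -0.18 ± 0.21 at probe 18774 (SD, n = 4; limma adjusted p = 0.699 and 0.208). Tspan17 held the lowest mean of all members, -0.91 ± 1.02 (SD, n = 3; limma adjusted p = 0.143), from values of -1.36, -1.62 and 0.26 in mice 1, 2 and 4. Mouse 4 stood on the other side of 0, and in mouse 3 the Cy5 array held the constant that was set missing. The single probe of Adam10 itself was at -0.12 ± 0.16 (SD, n = 4; limma adjusted p = 0.297).

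The remaining tetraspanins and Tm4sf1 did not pass. Tspan13 was at 0.08, 0.26, 0.27 and 0.27 in mutant mice 1 to 4, a mean of 0.22 ± 0.09 (SD, n = 4; limma adjusted p = 0.0563), with mouse 1 below the other 3. Tspan2, known from oligodendrocytes, was at 0.17 ± 0.08 at probe 5609 with all mice above 0 and at -0.04 ± 0.17 at probe 4469 (SD, n = 4; limma adjusted p = 0.109 and 0.746). Tspan1, Tspan3, Tspan9, Tspan18 and Tspan31 had means from -0.05 to 0.15. Tspan9, a tetraspanin of platelets and megakaryocytes, was at -0.04 ± 0.07 (SD, n = 4), and none of the 5 platelet marker probes passed. Tm4sf1, of the related L6 family and known from endothelium, was at 0.09 ± 0.09 (SD, n = 4; limma adjusted p = 0.338).

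The dye exchange gave a further view of each probe. Of the 32 members measured on all 8 spleen arrays, 9 had the same sign on every array, against 19.2% of all probes, a count added after the data were seen. These were Cldn3, Cldn4, Cldn6, Cldn12, Cldn19, Tspan4, Tspan13 and both Tspan33 probes. Cldn19 averaged -0.61 with the mutant in Cy5 and -0.73 with the mutant in Cy3, Cldn4 0.34 and 0.33, and Tspan4 0.42 and 0.51. At these 3 probes the Cy5 and Cy3 arrays overlapped. Cldn3 averaged -0.67 with the mutant in Cy5 and -0.42 with the mutant in Cy3, and Cldn6 0.50 and 0.20; at both, the Cy5 arrays lay further from 0 than the Cy3 arrays with no overlap.

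**Figure D2:**
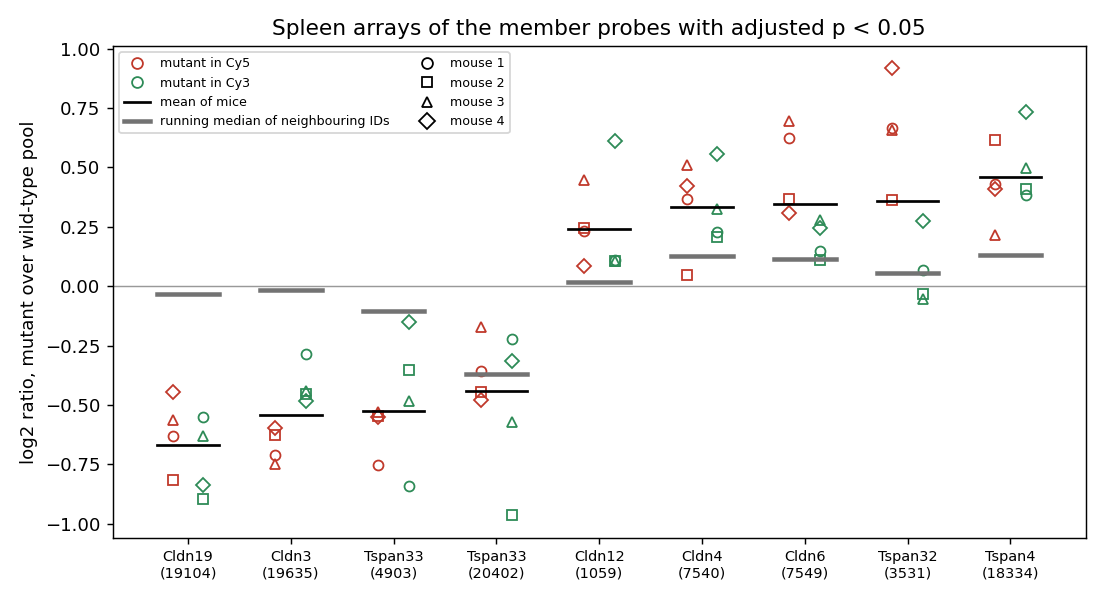
Log2 ratio of mutant over wild-type pool (vertical axis) on each of the 8 spleen arrays for the 9 member probes past the threshold, with the mutant in Cy5 in red and in Cy3 in green; symbols are mice, black bars the means over mice and grey bars the running median over the probe and the 100 IDs on either side. The grey bar lies at -0.37 under Tspan33 probe 20402, close to its mean of -0.44, and near 0 for Cldn19 and Cldn3; Tspan32 averages 0.65 in red and 0.06 in green.

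Other members carried a dye effect as large as or larger than their mutant effect. For Cldn10 probe 888 the Cy5 arrays averaged 1.14 and the Cy3 arrays -0.61 in spleen, a dye effect (Cy5 minus Cy3, divided by 2) of 0.88. The thymus arrays of that probe gave a dye effect of 0.32, the same way. Cldn11 had dye effects of 0.39 in spleen and 0.27 in thymus. At Emp3 probe 4348 the spleen arrays averaged 0.47 with the mutant in Cy5 and -0.06 with the mutant in Cy3. Over the 34 members the median size of the dye effect was 0.09 in spleen and 0.10 in thymus, while the median size of the log2 ratio was 0.19 in spleen and 0.05 in thymus. Across the members the dye effects of spleen and thymus correlated at 0.347 (Pearson, 34 probes that share arrays and dyes), given as a description.

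**Figure D3:**
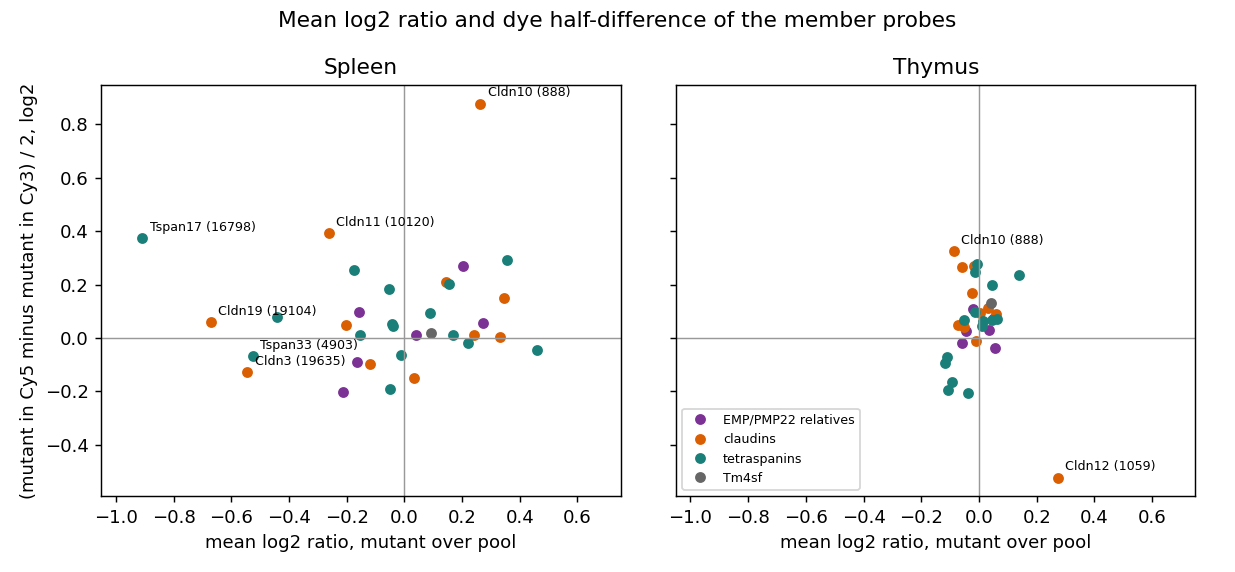
Mean log2 ratio (horizontal axis) and dye effect, the Cy5 minus the Cy3 mean divided by 2 (vertical axis, log2), of the member probes in spleen (left) and thymus (right); each point is a probe, coloured by family. In spleen the points spread along both axes, with Cldn10 probe 888 at a dye effect of 0.88, while in thymus the means stay within -0.12 to 0.14 apart from Cldn12 at 0.27 and the dye effects reach -0.52 at Cldn12.

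In thymus no member passed, and neither did any other probe (0 of 20130, 0.00%, in limma with thymus fitted alone; 725 probes, or 3.60%, had an unadjusted p under 0.05). Of the 33 members tested, 1 had an unadjusted p under 0.05, Tspan2 probe 4469. Its log2 ratios were 0.21, 0.09 and 0.11 in mutant mice 1, 3 and 4, a mean of 0.14 ± 0.07 (SD, n = 3; limma adjusted p = 0.866), all above 0. The thymus arrays of that probe averaged 0.37 with the mutant in Cy5 and -0.10 with the mutant in Cy3. Its dye effect of 0.24 was thus larger than its mean, and the 2 orientations differed in sign. Emp3 was at -0.16, 0.02 and 0.01 at probe 4348, and at 0.01, 0.11 and 0.04 at probe 11822, with means of -0.04 ± 0.10 and 0.05 ± 0.05 (SD, n = 3; limma adjusted p = 0.886 and 0.866). The intervals of these means ran from -0.18 to 0.09 and from -0.06 to 0.17. Apart from the unmeasured spread of the pool, they hold no change larger than 0.18 on the log2 scale. That bound also rests on the Cy3 arrays being already turned, which the thymus arrays do not settle. The largest thymus mean of a member was that of Cldn12, at 0.27 ± 0.64 (SD, n = 3; limma adjusted p = 0.866), from 0.16, 0.96 and -0.30 in mice 1, 3 and 4, a spread that covers 0. Cldn10 probe 888 was at -0.08, -0.10 and -0.08, the tightest trio among the claudins with a mean of -0.09 ± 0.01 (SD, n = 3; limma adjusted p = 0.866). Its thymus arrays averaged 0.24 with the mutant in Cy5 and -0.41 with the mutant in Cy3. The narrow spread is therefore one of means over opposed arrays. Cldn3, called in spleen, was at -0.08, -0.10 and -0.04 in thymus, with a mean of -0.07 ± 0.03 (SD, n = 3; limma adjusted p = 0.866). Tspan33 probe 20402 was at 0.03, -0.24 and -0.12, with a mean of -0.11 ± 0.13 (SD, n = 3; limma adjusted p = 0.866). The median thymus log2 ratio was 0.01 for the relatives, -0.02 for the claudins and -0.01 for the tetraspanins, against 0.00 for all probes. Tspan17 had a value in only 2 thymus mice and was not tested there.

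The mutant effect was compared between the organs in a fit of both, as spleen minus thymus. That fit uses a variance shared by the organs and treats them as separate animals. Over all probes the median SD between mice was 0.16 in spleen and 0.09 in thymus. Of 33 members 4 passed, against 13.9% of all 19948 probes. Cldn19 differed by -0.65 ± 0.09 (SE; limma adjusted p = 0.0056), Cldn3 by -0.47 ± 0.07 (SE; 0.00679), Tspan4 by 0.40 ± 0.08 (SE; 0.0164) and Cldn6 by 0.32 ± 0.09 (SE; 0.0471). In each of these the 4 spleen mice did not overlap the 3 thymus mice. That adds no support, because the probes were picked by a test on the same values. The same animals gave both organs, and with the mouse as a replicate block none of the members and none of all probes passed (0 of 19948, 0.00%; 4606 probes, or 23.1%, and 9 members had an unadjusted p under 0.05). The blocked adjusted p was 0.055 for Cldn19, 0.0675 for Cldn3, 0.1005 for Tspan4 and 0.1405 for Cldn6. Leaving out mouse 1, 3 or 4 leaves 2 mice in thymus. For the difference 4 members passed without mouse 1, against 11.5% of all probes. Without mouse 3 or without mouse 4 it was 0 members, against 0.0508% and 0% of all probes. With the mirrored arrays of mouse 2 included, 8 of 34 members passed, against 22.7% of all probes.

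Relatives and partners outside the naming rule were set beside the members in spleen, where 25.3% of all probes passed. Of 7 probes for 7 tetraspanins that do not carry the Tspan name, Cd63, a tetraspanin of lysosomes and exosomes, was lower and Cd9, of platelets and the egg, higher. Cd63 was at -0.70, -0.50, -0.58 and -0.51 in mutant mice 1 to 4, a mean of -0.57 ± 0.09 (SD, n = 4; limma adjusted p = 0.00419). Cd9 was at 0.12, 0.94, 0.80 and 0.61, a mean of 0.62 ± 0.36 (SD, n = 4; limma adjusted p = 0.0245), with mouse 1 lowest. Cd81, which lies next to Tspan32 in the gene table, was at -0.19 ± 0.18, and Cd151 at 0.14 ± 0.15 (SD, n = 4; limma adjusted p = 0.156 and 0.247). Of 17 probes for 12 other relatives of the PMP22/claudin fold, 3 were higher and 4 lower. Nkg7, a protein of cytotoxic granules that neighbours Lim2 in the gene table, was at 0.90, 0.81, 0.69 and 0.67, a mean of 0.77 ± 0.11 (SD, n = 4; limma adjusted p = 0.00401). All 4 mice lay far above 0. Cacng4, a calcium channel and glutamate receptor subunit, was measured by 4 probes; it was higher at probe 15008 (0.56 ± 0.18) and lower at probes 15979 (-0.52 ± 0.17) and 19792 (-0.45 ± 0.26; SD, n = 4 each; limma adjusted p = 0.00807, 0.008525 and 0.0292), and probe 7344 did not pass, at 0.16.

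Of 15 probes for 12 tight junction partners of the claudins, 1 was higher and 3 were lower. Tjp1, the scaffold ZO-1, was at -0.47, -1.06, -0.85 and -1.01 in mutant mice 1 to 4 at probe 20383, a mean of -0.85 ± 0.27 (SD, n = 4; limma adjusted p = 0.00518). That probe lies in the same stretch of IDs as Tspan33 probe 20402, with a running median of -0.35, and the second Tjp1 probe, 8811, did not pass, at -0.19 ± 1.08 (SD, n = 4; limma adjusted p = 0.739). Amot, an angiomotin of cell junctions, was at -0.65 ± 0.23, Pard3 (probe 17458), of the polarity complex, at -0.35 ± 0.13, and Pard6a, of the same complex, at 0.30 ± 0.08 (SD, n = 4; limma adjusted p = 0.00744, 0.0201 and 0.0204). The second Pard3 probe, 17063, did not pass, at -0.07. Of 27 probes for 16 partners of tetraspanins, 4 were higher and 1 lower. The integrin chains Itga6 (probe 7878) and Itgb1 (probe 19329), classical tetraspanin partners, were at 0.32 ± 0.09 and 0.29 ± 0.07 (SD, n = 4; limma adjusted p = 0.018 and 0.0221), while the other Itgb1 probes did not pass. Prkca, a protein kinase C that tetraspanins recruit, was higher at probes 18857 and 12887, at 0.43 ± 0.13 and 0.48 ± 0.29 (SD, n = 4; limma adjusted p = 0.0102 and 0.0316), while its other probes, 3748 and 18159, did not pass, at -0.10 and -0.01. Pi4k2b, a lipid kinase, was lower at probe 20672, at -0.93 ± 0.33 (SD, n = 4; limma adjusted p = 0.00603), where the running median of neighbouring IDs was -0.52; its probe 8515 did not pass, at 0.17. No probe of these lists passed in thymus.

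Probes that share a gene did not in general share a value. Over 4431 pairs of probes of the same gene more than 400 IDs apart, Spearman's rho of the spleen log2 ratio was 0.00, given as a description across probes. In the 284 pairs with both probes past the threshold, 144 (50.7%) had the same direction. This is close to an even split, so the direction of a called probe told little of that of its partner. Among the 6 member genes with 2 probes, each annotated to the same RefSeq transcript, the spleen means differed by 0.07 for Emp3, 0.09 for Tspan33 and 0.12 for Tspan5 in size, and by 0.47 for Cldn10. Emp2, Tspan2 and Cldn10 had means on opposite sides of 0. Each gene name above therefore stands only for the probe that carries it in the annotation. Whether the annotation matches the deposited values at every probe was not tested. The agreement at Tspan33 has to be read with the running median at its probe 20402 and with the near-even split of directions over such pairs.

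**Figure D4:**
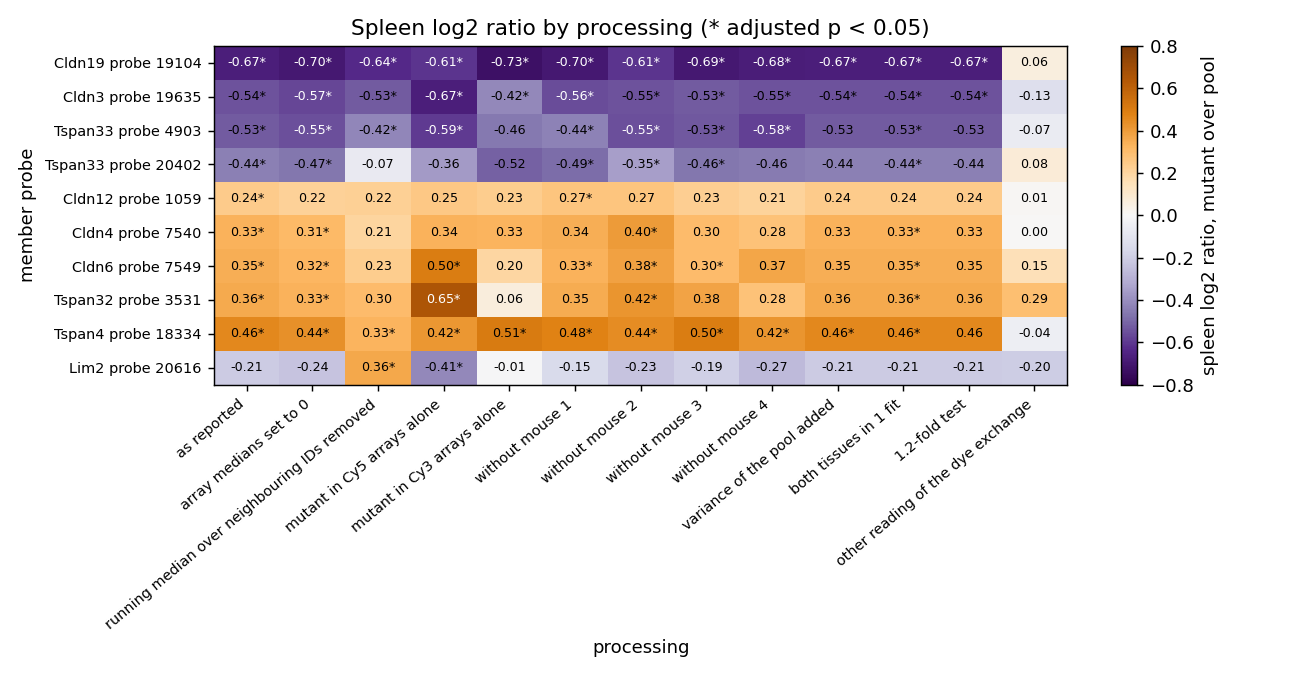
Spleen log2 ratio of mutant over wild-type pool (colour and printed value) of the 9 member probes past the threshold and of Lim2 (rows) as reported and under 12 other ways of processing (columns); stars mark an adjusted p under 0.05. Cldn19 and Cldn3 keep their star in each column but the last, Tspan33 probe 20402 falls to -0.07 and Lim2 turns to 0.36 where the running median of neighbouring IDs is removed.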

How the data were processed

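RNA of each mutant organ and of the wild-type pool was labelled with Cy3 and Cy5 and hybridised with the dyes exchanged, per the labels' protocols. The deposited values were ratios on a log2 scale, as far as their range shows; their base, normalization and centring are unstated in the labels and headers. A constant, the same within an array, stood in 25 to 137 spots per array, positive with the mutant in Cy5 and negative with the mutant in Cy3 on all 16 arrays; it was set missing, and the Cy3 arrays were taken as already turned. The pool held 4 mice in the channel labels and 6 in the labelling protocol.

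The mean of a mouse's 2 arrays was 1 replicate. Each organ was fitted alone with limma 3.58.1 in R 4.3.3 (lmFit, eBayes), with at least 3 mice per probe and Benjamini-Hochberg adjustment over all probes; spleen minus thymus came from a fit of both. The script was tested on simulated data. Gene names came from the platform annotation, and all 28 symbols matched RefSeq by gene number. By the rule used, all PMP22/EMP probes were named; of the other families the probes past the threshold, the 4 lowest in p in spleen and the 2 lowest in thymus; and of each related list at most 4 genes, the lowest in p. Cldn7, Cldn14, Tspan1, Tspan3, Tspan5, Tspan9, Tspan17, Tspan18, Tspan31, Tm4sf1 and Adam10 were named after their values were seen. Members, lists and tests were chosen with earlier results of these data known.

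The mouse numbers pair the organs because the same animals gave both; their deviations correlated at -0.0456, -0.0101 and -0.0864 in mice 1, 3 and 4. Alternatives were other centring, a fit of both organs, an added pool variance, the other dye reading, removal of a running median over neighbouring IDs (100 on either side), other handling of missing spots, a 1.2-fold test, gene means, single dyes, leaving out mice, including thymus mouse 2, and the replicate block. Thymus mouse 2 was left out of all other fits.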

Additional observations from a re-analysis of the deposited data

Results flagged for a closer look

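In 2 of the 32 member probes with 4 spleen mice, a single mouse stood apart from the other 3, where chance gives about 1 in 20. Tspan13 (probe 5619) was at 0.0825 in mouse 1, against 0.2615 to 0.2705 in the other mice. Emp2 (probe 18713) was at -0.2485 in mouse 3, against 0.105 to 0.171 in the other mice.

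For spleen minus thymus 4 probes passed in the limma fit of both organs, which shares a variance and treats the organs as separate animals. The difference, spleen minus thymus on the log2 scale, was -0.6475 for Cldn19, -0.4727 for Cldn3, 0.3983 for Tspan4 and 0.3157 for Cldn6. With the mouse as a replicate block the adjusted p was 0.05498, 0.06748, 0.1005 and 0.1405 in that order, and none passed.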

How the results depend on the processing

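In spleen 9 of 34 member probes and 5086 of 20127 probes passed (26.5% and 25.3%). The variance of a pool of 4 mice, once added, left 3 members and 1689 probes (584 higher, 1105 lower, against 2691 and 2395). The 3 members were Cldn19, Cldn3 and Tspan4. The 1.2-fold test left 2 and 887 (194 higher, 693 lower). With the running median of neighbouring IDs removed 5 members and 4067 probes passed (14.7% and 20.2%). On the Cy3 arrays alone it was 5 and 3074 (14.7% and 15.1%). The other dye reading left 0 members and 1 probe (8 members and 4217 probes at an unadjusted p under 0.05). Gene means gave 2235 genes, from fewer units. Leaving out 1 mouse gave 4 to 8 members and 2351 to 4867 probes, with 2351 without mouse 2, 2366 without mouse 4 and the 4 members without mouse 4.

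The median spleen log2 ratio moved to 0.1239 for the PMP22/EMP relatives and -0.0415 for the claudins with the running median removed, and for the claudins to 0.1303 on Cy5 and -0.0635 on Cy3 arrays. Without 1 mouse it ran from -0.08492 to 0.03542 for the relatives, -0.0045 to 0.03417 for the claudins and -0.05283 to 0.03983 for the tetraspanins. In thymus 0 members passed in each alternative, and 0 to 1 of all probes without 1 mouse. The thymus medians of relatives, claudins and tetraspanins, in that order, were 0.02917, 0.09367 and 0.06583 in the other dye reading, 0.04167, 0.1417 and 0.07833 on Cy5 arrays and -0.03017, -0.093 and -0.03817 on Cy3 arrays. The tetraspanin median was -0.02383 with array medians at 0 and -0.000125 with mouse 2 included. Without 1 mouse these medians ran from -0.01325 to 0.03575, -0.0495 to -0.0065 and -0.01925 to 0.01962.

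For spleen minus thymus, 4 of 33 members and 2781 of 19948 probes passed (12.1% and 13.9%). The mouse as a replicate block left 0 and 0 (9 members and 4606 probes at an unadjusted p under 0.05). The pool variance left 1 and 267 (60 higher, 207 lower), and the other dye reading 0 and 0 (2 and 624 unadjusted). Removal of the running median left 2 and 2164 (6.06% and 10.8%). Including thymus mouse 2 gave 8 and 4553, gene means gave 1138 genes, and leaving out 1 mouse gave 0 to 4 members and 0 to 2260 probes. The other dye reading turned Tspan4 to -0.044, Cldn19 to 0.05813 and Tspan33 probe 20402 to 0.07775 in spleen, and Tspan4 to -0.1163 for the difference. Removing the running median turned Lim2 to 0.3643. The causes were not tested. Signal over background is unknown.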
